A study of Oryza sativa and Arabidopsis thaliana with 28 samples.

Results

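The sites described here are 5203 cytosines of Arabidopsis thaliana that were listed as reading as thymine after a chemical treatment for N4-acetylcytidine (ac4C), and that lie in the last 20% of their gene, measured from start to end. They were chosen by position, with earlier results of these data known, from 66875 listed cytosines. A site was a member when it lay on chromosomes 1 to 5, inside a plus-strand gene, and at a fraction of 0.8 or more of the distance from the gene's start to its end. Both left-out genes, AT3G41768 and AT2G01010, encode 18S ribosomal RNA. The members fell in 1148 genes out of 10562 plus-strand genes on these chromosomes. One member lay in a pair of overlapping genes, which gave 5204 pairs of a site and a gene. The comparison set was the 30329 other listed sites in the same genes. All plus-strand genes together held 52465 listed sites in 3766 genes.

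Both libraries came from seedlings of the cultivar Col-0 at day 10, and both were made from poly(A) RNA bound to oligo-dT beads, with a kit that keeps strand. One RNA portion was incubated for 20 min with NaCNBH3 in acid and is called treated. The other was incubated for 20 min in the same acid without NaCNBH3 and is called control. There was 1 library in each group, so every test on a site compares these libraries and not the conditions, and there is no replicate error. The rest of the 28 samples of the series cover rice, antibody pulldowns and ribosome-bound RNA, of which only the RNA levels of Arabidopsis genes are used here.

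ac4C is an acetylated cytidine that RNA cytidine acetyltransferases such as NAT10 in human cells place on transfer RNA and 18S ribosomal RNA, and that has also been described in messenger RNA. Sodium cyanoborohydride in acid reduces ac4C to a base that reverse transcriptase reads as uridine, so a modified cytosine appears as a C-to-T change in the treated library and not in the control library. The end of a gene usually holds the last part of the reading frame and the 3′ untranslated region, which carries many signals for RNA stability and translation. The deposited tables do not mark exons, introns or untranslated regions, so members are placed only by their share of the gene from start to end.

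Almost every member had a higher C-to-T rate in the treated library, and the level was low. The rate is the share of reads at a cytosine that carry T. A site was called when its rate was higher after treatment and a Fisher's exact test (two-sided) of its reads gave an adjusted p under 0.05, by Benjamini-Hochberg over all tested sites. Of the 5203 members, 5008 were called higher, 18 were called lower and 177 were neither. The share called was 96.3%, beside a background of 94.3% over all 66873 tested sites of the table. In the rest of the same genes 29728 of 30329 sites were called, or 98.0%. The share of members called was thus close to the background by this test. Every listed site had at least 5 T reads in the treated library, with no such minimum in the control library. Listing therefore favoured a higher treated rate, in the members and in the background alike, so a high share called was largely set beforehand. By the authors' deposited adjusted p the share of members was 82.2%, against 90.1% in the rest of the same genes. The background of 94.3% is by Fisher's exact test and does not apply to these shares. No share over all sites is given for the deposited adjusted p.

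The median treated rate of the members was 1.39%, and their rates ran from 0.680% at the 10th percentile to 4.03% at the 90th. In the rest of the same genes the median was 1.10%, with 0.611% and 2.5% at the same percentiles. The median control rate was 0% in both sets of sites, and 62.9% of members and 50.6% of the other sites had no T read in the control library. The members were higher by the median and wider in spread, but the pooled rates over all reads were close to each other. The members held 64347 T reads in 6658012 treated reads, a pooled rate of 0.966%, and the other sites 615233 in 63380722, a pooled rate of 0.971%. The pooled control rates were 0.0529% and 0.0522%.

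High rates were more frequent among the members. A rise of at least 1 percentage point over the control was called at 3438 members, or 66.1%, against 54.7% in the rest of the same genes and a background of 54.2%. A rise of at least 5 points was called at 275 members, or 5.29%, against 497 sites or 1.64% in the rest and 3.82% over the whole table. Very high rates were rare. A treated rate of 20% or more was called at 5 members and 31 other sites, or 0.0961% and 0.102% of each set, and a rate of 50% or more at 2 sites of each set, or 0.0384% and 0.00659%. The rest of the same genes was limited to genes chosen for holding a member. Outside the last 20% of all plus-strand genes, the median treated rate was 1.21%. A treated rate of 5% or more was called at 3.87% of those sites, against 5.42% of members and 1.74% in the rest of the same genes.

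Read depth moved with these rates. The members had 31 to 59002 treated reads and 23 to 88194 control reads. Their medians were 547 and 1748, while the other sites had 856 and 3216. Every site in the table carried at least 5 T reads in the treated library, so a site with few reads can be listed only at a high rate. Exactly 5 T reads were counted at 1375 members, or 26.4%, and at 16.6% of the other sites. The lowest rate that 5 T reads give at a site's depth had a median of 0.914% over all members and 0.584% over all other sites.

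Within classes of similar treated depth up to 4999 reads, the members and the rest of the genes had nearly equal medians. The classes do not match the sets on control reads. The minimum of 5 T reads also bounds the listed rates from below within a class. Near-equal medians therefore do not show that the stretches were converted equally. From 10 to 199 treated reads the median rate was 4.18% at 852 members and 4.13% at 1507 other sites. From 500 to 999 reads it was 1.08% at 1507 members and 1.07% at 8539 other sites. From 1000 to 1999 reads the order was the other way, with 0.835% at 738 members and 0.852% at 6590 other sites, and from 2000 to 4999 reads the medians were 0.862% and 0.863%. The shallowest class held 16.4% of the members but 4.97% of the other sites. In that class 35.4% of members and 29.1% of other sites had a treated rate of 5% or more, and in the class from 200 to 499 reads these shares were 1.43% and 1.51%.

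**Figure D1:**
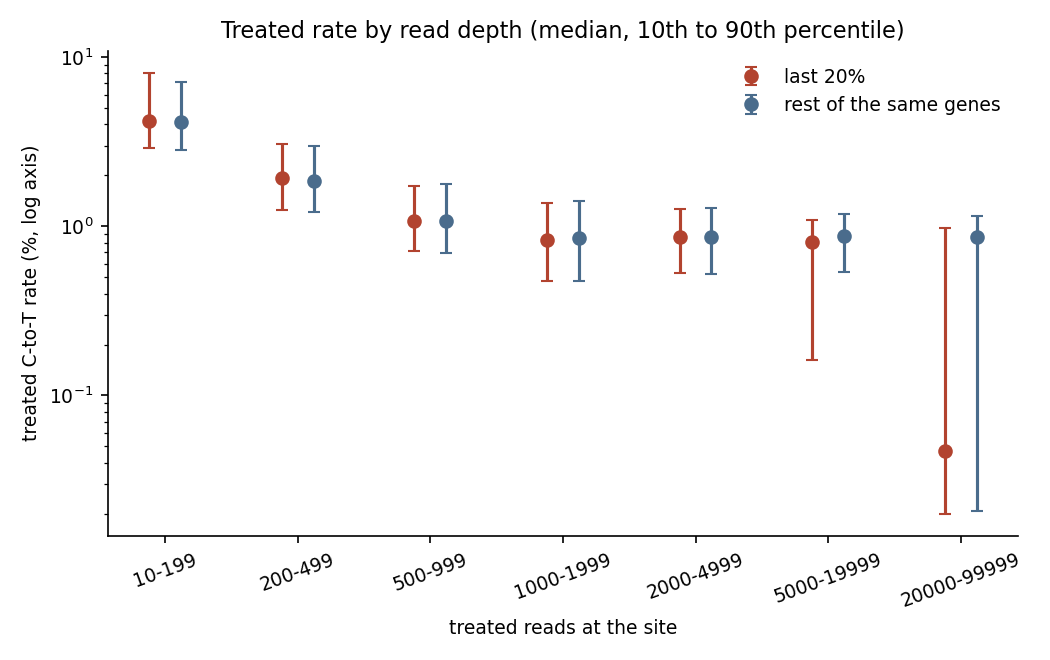
Treated C-to-T rate (%, log axis) by class of treated reads at the site, for members and for the rest of the same genes. Points are medians and bars run from the 10th to the 90th percentile of sites. The medians lie on top of each other from 10 up to 4999 reads and fall from 4.18% to 0.862% among the members. In the deepest class the members drop to 0.0469%, and the read counts of some genes in that class are uncertain.

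The medians stood farthest apart at 20000 treated reads or more. The 38 members at this depth had a median rate of 0.0469%, against 0.870% at 412 other sites. They came from 6 genes, all on chromosome 2, which are described further on, and the read counts of some of these genes are uncertain. From 5000 to 19999 reads the medians were 0.813% at 149 members and 0.873% at 1935 other sites. Without 4 short genes within 20 kilobases of the 18S genes they were 0.884% and 0.888%.

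The listed sites thinned out sharply toward the end of the gene. Over all plus-strand genes with a listed site, the last 20% held 9.92% of the sites, while the 4 stretches of equal length before it held 14.7%, 22.9%, 24.8% and 27.7%, from the start of the gene on. In the 1148 genes with a member, 2696 sites lay between 75% and 80% of the gene and 2724 between 80% and 85%. The numbers then fell to 1760, 622 and 97 in the next stretches of 5%. Of the members, 52.4% lay before 85% of the gene and 1.86% from 95% on.

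Median depth fell at the same place, from 826 treated reads between 75% and 80% to 590, 506, 418 and 481 in the 4 stretches of the last 20%. The median rate rose from 1.13% to 1.30%, 1.47%, 1.52% and 1.45%, and the share of sites at 5% or more rose from 1.67% to 4.81%, 7.10%, 9.32% and 17.5%, the last of these over 97 sites. The mean control rate rose along the same stretches, from 0.125% to 0.175%, 0.251%, 0.324% and 0.913%. These genes were kept for holding a site in the last 20%, which bears on the step at 80%. Over all plus-strand genes, sites between 75% and 80% had a median of 655 treated reads and a median rate of 1.24%. The step to 590 reads and 1.30% was therefore smaller there. The start of the gene showed the same shape, with 147 sites in the first 5%, a median of 341 reads and a median rate of 1.96%. Between 15% and 75% of the gene the median rate stayed between 1.07% and 1.13%.

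**Figure D2:**
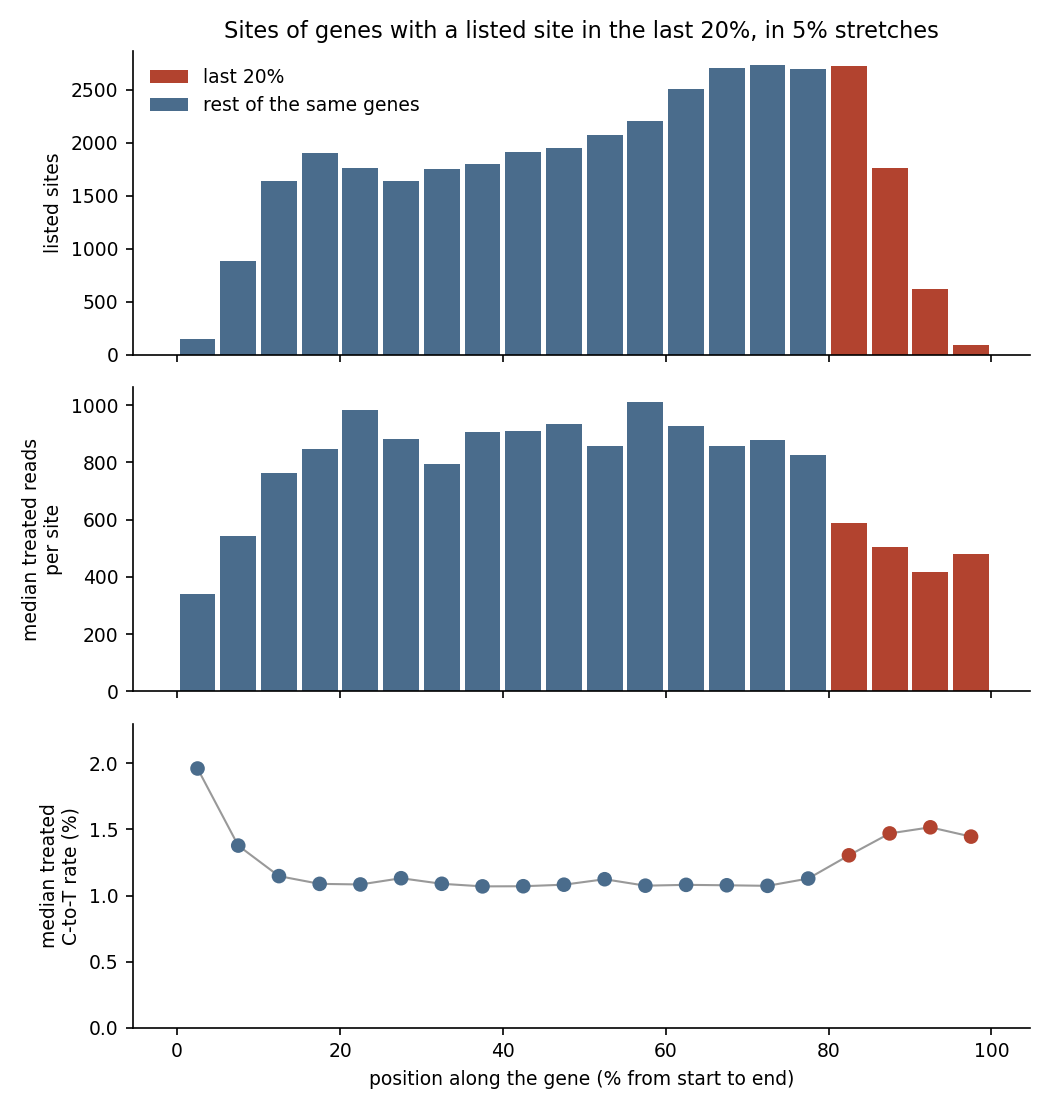
Number of listed sites, median treated reads per site and median treated C-to-T rate (%) along genes with a member, in stretches of 5% of the distance from gene start to gene end. Sites thin out from 2724 to 97 across the last 20% while the median rate lies between 1.30% and 1.52%, and both ends of the gene have fewer reads and higher rates than its middle.

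At the edge of the chosen stretch, the 636 members between 0.80 and 0.81 of the gene had a median rate of 1.30% at 624.5 reads. The 528 sites between 0.79 and 0.80, taken only from genes with a member, had 1.20% at 799 reads. In bases, the median member lay 404 bases before the annotated end of its gene, with quartiles of 306 and 548 bases and a maximum of 2827. Within 100 bases of the end there were 100 members, and 55 of these belonged to the 4 short genes near the 18S genes, which left 45 in all other genes.

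Per kilobase, the last 20% of genes with a member held 6.60 sites and the rest of the same genes 9.62. Having a member favours a high density in the last 20%. Over all 3766 plus-strand genes with a listed site, the densities were 2.38 and 5.42 sites per kilobase. A listed site at the next base was found for 16.4% of members and 25.1% of other sites, and among sites with at least 1000 treated reads for 34.9% and 39.1%. Members were found on all 5 chromosomes, with 1469, 746, 1242, 612 and 1134 on chromosomes 1 to 5, between 13.0% and 16.5% of the sites of those genes on each.

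The members were unevenly spread over genes. A single member was found in 589 of the 1148 genes, 2 to 4 in 323, 5 to 19 in 178 and 20 or more in 58 genes. Those 58 genes held 2174 members, or 41.8%. The single members had a median rate of 3.91% at a median of 149 treated reads, and the members of the 58 genes a median of 0.995% at 987.5 reads. In 200 genes the members were the only listed sites of the gene. Another gene of the table, on either strand, overlapped 321 of the 1148 genes, and 204 members lay inside such an overlap.

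Genes with a member had high mRNA levels. The median level was 10.6 and 10.9 RPKM (mapped reads scaled to gene length and library size) in the 2 mRNA libraries, against 6.17 and 6.21 RPKM in 2618 genes with sites elsewhere only and 1.30 and 1.35 RPKM in 6796 genes with no listed site. Both libraries gave the same order. In the decile of genes with the highest mRNA level 418 of 1057 had a member, or 39.5%, and in the lowest decile 11 of 1057, or 1.04%. In the ribosome-bound RNA the medians were 32.6 and 33.1, then 14.4 and 14.6, then 2.46 and 2.52 RPKM for the 3 groups of genes. The natural log of translation efficiency, as deposited by the authors and averaged over the transcripts of a gene, had medians of 1.00, 0.746 and 0.656. Genes with a member were also longer, with a median of 2943 bases against 2313 and 2092. Read depth moves with RNA level, and its part in these differences was not tested.

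Gene by gene, the last 20% was compared with the rest where both stretches had at least 3 tested sites, which left 351 genes. The pooled treated rate was higher in the last 20% in 198 genes and lower in 153, with a median difference of 0.0465 percentage points and 10th and 90th percentiles of -0.862 and 0.913. With at least 10 sites in both stretches, 61 of 123 genes were higher in the last 20%, so the majority turned. The side went with depth. In the 240 genes whose last 20% had fewer reads per site, 179 were higher in the last 20%, with a median difference of 0.198 points. Where the last 20% had more reads per site, in 111 genes, 19 were higher and the median difference was -0.317 points. In the 44 genes with at least 1000 treated reads per site in both stretches, 15 were higher, with a median difference of -0.0285 points. The split by depth was chosen after the values were seen. Reads are also the denominator of the rate, and every listed site has at least 5 T reads. The stretch with fewer reads per site therefore tends to the higher listed rate, and the split says little about conversion.

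**Figure D3:**
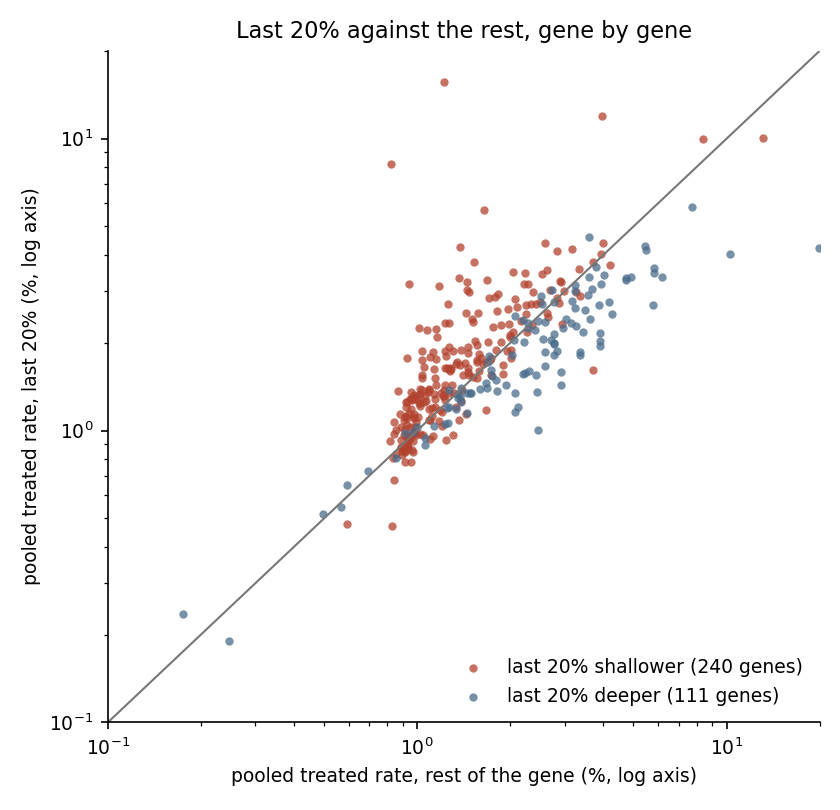
Pooled treated C-to-T rate (%) of the last 20% against the rest of the gene, both on log axes, for the 351 genes with at least 3 tested sites in both. The line marks equal rates. Genes whose last 20% had fewer reads per site lie mostly over the line, 179 of 240, and genes whose last 20% had more reads lie mostly under it, 92 of 111. Reads are the denominator of the rates, so the split is not independent of them.

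Among 161 genes with at least 3000 treated reads in both stretches, the largest rise belonged to AT3G16410. Its 7 members pooled to 8.20% after treatment and 4.25% in the control library, and its 95 other sites to 0.823% and 0.0464%. A single member at 62.7% carried this difference, and the other 6 members pooled to 0.975%, between 0.402% and 1.23% each. The next genes were AT5G14780 with 1.76% in the last 20% against 1.15% elsewhere, AT3G22890 with 1.80% against 1.24%, AT3G04840 with 1.63% against 1.13% and AT1G43670 with 1.93% against 1.46%. In these 4 genes the last 20% had between 398.9 and 483.9 reads per site and the rest between 533.5 and 743.3, and the pooled control rate of the last 20% was at most 0.0324%.

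At the other end, AT5G60600 had 1.00% in the last 20% over 34 members and 2.46% elsewhere over 31 sites. GLU1 (AT5G04140), the ferredoxin-dependent glutamate synthase that recovers ammonium in photorespiration, had 1.20% over 61 members against 2.12% over 57 other sites. AT4G24690 had 1.35% against 2.44%, AT1G65260 had 1.16% against 2.07%, and AT5G65010 had 1.85% against 2.59%. All 5 genes had more reads per site in the last 20%, for example 749 against 298.1 in AT5G60600 and 591.9 against 322.1 in GLU1. Among the 5 genes with the largest rises, this stretch always had fewer reads per site than the rest.

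The members called with the highest treated rate, at least 100 reads in both libraries and a control rate of at most 1%, were all thinly covered. In AT2G32900 (chromosome 2, 13953665 to 13957748, plus strand, TAIR10) the cytosine at 13956999, 749 bases before the gene's end, read as T in 16 of 113 treated reads, or 14.2% (95% exact Clopper-Pearson interval 8.32 to 22.0%). The control library had 0 of 696 T reads there, which allows a rate of up to 0.431% with 3 counts taken as the limit for 0. The exact interval of the control ends at 0.529%. The adjusted p of Fisher's exact test was 5.57e-14. In AT4G23940 the site at 12441160 on chromosome 4 read as T in 11 of 106 treated reads, 10.4% (5.30 to 17.8%). The control had 0 of 144 T reads there (adjusted p = 1.03e-04 by Fisher's exact test). This allows up to 2.08% by the same limit and 2.53% by the exact interval. Such intervals and limits reflect counting error alone, because copies of 1 molecule made by PCR cannot be recognised in these reads.

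In AT5G49210 the site at 19951339 on chromosome 5 had 10 T reads of 101, 9.90% (4.85 to 17.5%), and 0 of 568 in the control. The 9 genes after these were AT5G06980, AT1G56000, AT3G23640, AT2G31960, AT2G20340, AT4G37550, AT1G69340, AT5G44070 and AT1G73990, with treated rates from 8.70% down to 7.75%. Of these, AT4G37550 had the deepest control, with 9 of 114 T reads in the treated library at position 17645635 of chromosome 4 and 0 of 2265 in the control. All 12 sites had 0 control T reads and between 101 and 162 treated reads. Their treated intervals overlapped one another, so the order within the 12 is within counting error. No treated interval overlapped its control interval, but the sites were picked as called with the highest rates from these same counts. That gap was therefore largely set by the choice, which the intervals do not allow for. Among the 4847 called members that met the same limits on reads and control rate, the median treated rate was 1.34%.

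**Figure D4:**
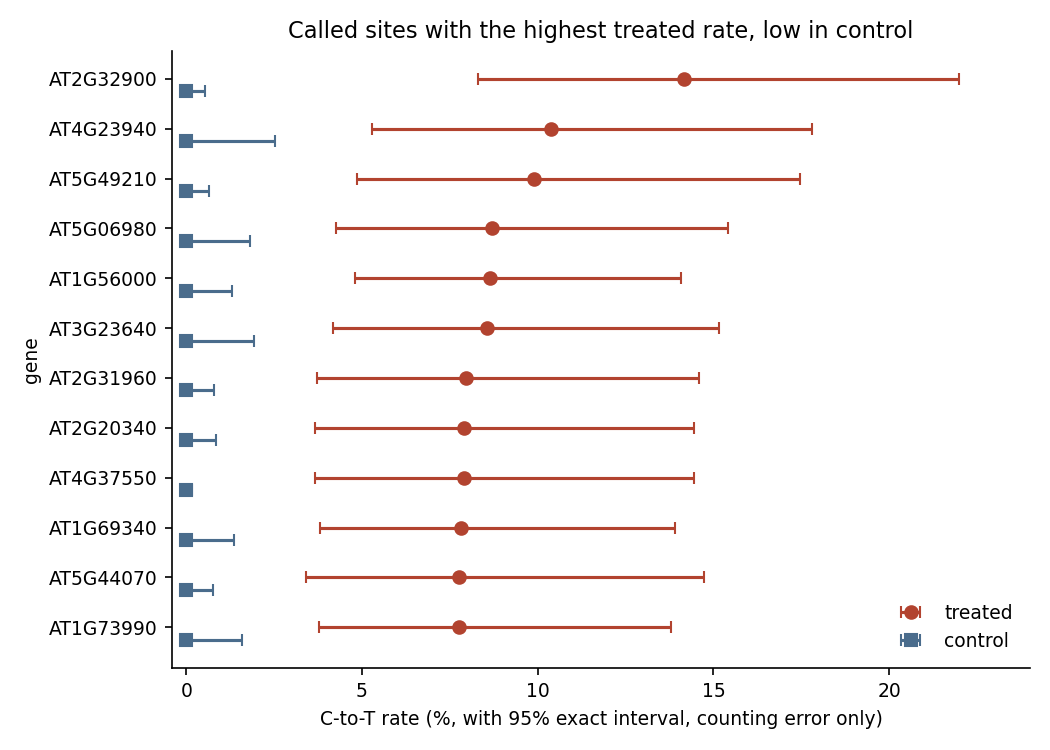
Treated and control C-to-T rate (%) at the 12 called members with the highest treated rate among those with at least 100 reads in both libraries and a control rate of at most 1%, 1 per gene. Bars are 95% exact intervals of a single library. The treated rates run from 7.75% to 14.2% and every control rate is 0%.

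The highest treated rates of all, at 50 or more treated reads, came with high control rates. In AT3G49110 the site at 18202750 on chromosome 3 read as T in 270 of 410 treated reads, 65.9% (61.0 to 70.4%), and in 99 of 398 control reads, 24.9% (20.7 to 29.4%). In AT3G16410 the site at 5574272 on chromosome 3 had 62.7% after treatment and 36.2% in the control library, and in AT5G08680 the site at 2824584 on chromosome 5 had 32.1% and 22.0%. All 3 were called higher. In AT2G07698 and AT3G44300 the treated rate was the lower one, with 43.9% against 68.4% at 3363682 of chromosome 2 and 28.2% against 47.7% at 15985124 of chromosome 3. The site of AT1G47560 at 17473133 of chromosome 1, with 26.8% and 42.9% over 56 reads each, was not called (adjusted p = 0.116 by Fisher's exact test). Whether reads at these sites came from other, similar genes was not tested.

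None of the 5 members called at 20% or more had a control rate of at most 1%. At 10% or more there were 35 called members, of which 18 had such a low control rate, and none of those 18 had more than 113 treated reads. A control rate over 1% was measured at 98 members, or 1.88%, and at 0.669% of the other sites. Of those 98 members 29 were called higher.

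All 18 members called lower had a control rate over 1%, between 2.37% and 68.4%. They lay in 13 genes and made up 0.346% of the members, beside 0.0626% in the rest of the same genes and a background of 0.474%. AT2G07698 held 4 of them. GAPC1, a cytosolic glyceraldehyde-3-phosphate dehydrogenase of glycolysis, had one at 1083236 of chromosome 3, with 47 T reads of 377 in the treated library, 12.5%, and 122 of 463 in the control, 26.3% (adjusted p = 1.28e-06 by Fisher's exact test). AT5G52920 had 2.34% against 12.05% at 21466539 of chromosome 5. AT2G07698 had mRNA levels of only 0.767 and 0.821 RPKM but 288.9 treated reads per member. Sharing of reads with similar genes was not tested at the lowered sites either.

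The genes with the most called members were strongly covered, and their members sat close to 1%. AT5G14740 had 74 members, all called, between 4761746 and 4762417 of chromosome 5, with rates from 0.164% to 2.12% and a median of 0.902% beside a control median of 0.0239%. Its pooled rate was 0.963% in the last 20% and 0.954% elsewhere. CAT3 (AT1G20620), a catalase that breaks down hydrogen peroxide, had 69 members, all called, over 406 bases of chromosome 1, with a pooled rate of 0.966% against 0.904% elsewhere and control rates of 0.0293% and 0.0304%. ATMS1 (AT5G17920), a methionine synthase, had 67 of 68 members called, with 0.848% in the last 20% and 0.894% elsewhere.

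EEF1A1 (AT1G07920), a translation elongation factor that brings aminoacyl-tRNA to the ribosome, had 64 members, all called, with a pooled treated rate of 1.08% and a control rate of 0.0941%. The rest of the gene had 1.36% and 0.334%, so the rates less the control were 0.989% and 1.03%. AT2G47730 had 61 called members with 1.26% in the last 20% and 1.05% elsewhere. GLU1, at -0.914 points, had 61 called members as well. In the other 5 genes the difference between the stretches was between -0.280 and 0.207 points.

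AT2G41310 was the exception among the genes with many members. It had 67 members, 66 of them called, and no listed site in the rest of the gene. All 67 lay within 260 bases, from 17224538 to 17224797 of chromosome 2, inside the minus-strand gene AT2G09250 (17224503 to 17224801). They had a median of 7797 treated reads, while the mRNA level was 4.80 RPKM in both libraries for AT2G41310 and 1.03 and 0.427 RPKM for AT2G09250. Their pooled rate was 0.924% against 0.0294% in the control.

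The deepest members fell into separate groups. AT2G01020 and AT2G01021, short genes of 164 and 102 bases beside the left-out 18S gene on chromosome 2, had 10 and 6 members with 24517 to 59002 treated reads, all called. In AT2G01021 the site at 6654 read as T in 1367 of 59002 treated reads, 2.32% (2.20 to 2.44%), and in 7 of 13504 control reads, 0.0518%. In AT2G01020 the site at 5913 had 117 of 26456, 0.442%, and 1 of 20579 control reads, 0.00486%. With AT3G06355 and AT3G41979, which lie beside the other left-out 18S gene on chromosome 3, these genes held 55 members. All 55 were called, with a median rate of 0.250% at a median of 16760 reads.

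The other 22 members above 20000 treated reads had rates between 0.0114% and 0.0621%, and 3 of them were called. AT2G08665 held 16, all inside the interval of the minus-strand gene AT2G34420, with a median of 36670.5 treated reads, a median rate of 0.0251% and a median control rate of 0.0128%. The mRNA level of AT2G08665 was 6875 and 6592 RPKM and that of AT2G34420 6891 and 6609 RPKM, so the counts of these overlapping genes cannot be told apart. AT2G01220 held 2 of the others, AT2G01850 held 3 and AT2G01480 held 1, none of them called and none with a T read in the control. Their mRNA levels were between 2.04 and 62.1 RPKM.

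At least 1000 treated reads with a control rate of at most 1% gave a view of the members at good precision, with this limit chosen after the values were seen. The highest was in EEF1A1, at 2456956 of chromosome 1, with 157 of 2391 T reads in the treated library, 6.57% (5.61 to 7.63%), and 44 of 4442 in the control, 0.991%. GOX1 (AT3G14420), a glycolate oxidase of photorespiration, had 4.11% (3.33 to 5.01%) against 0.963% at 4823621 of chromosome 3. A site of AT2G01021, beside the 18S gene, had 2.86% against 0.111% at 6655 of chromosome 2. AT1G07890 had 2.66% (1.80 to 3.77%) at 2439313 of chromosome 1, with 0 of 3192 control reads, and AT2G22990 had 2.42% (1.65 to 3.42%) against 0.0732% at 9789719 of chromosome 2. EEF1A1 and GOX1 each have a near-identical neighbour, EEF1A2 and GOX2, and their reads may be shared between copies, so the sites of these genes are uncertain.

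Genes of known function were grouped in 11 lists, which held 75 plus-strand genes. The lists name mostly highly expressed genes and were chosen with earlier results of these data known. Of their genes 55 had a member, or 73.3%, against 39.5% of the decile with the highest mRNA level and 10.9% of all plus-strand genes. They held 1191 members, of which 1176 were called, or 98.7%, close to the 96.3% of all members and the background of 94.3%, so the counts of called members that follow describe the lists and set none apart. In the 48 listed genes with at least 3 sites in both stretches, 22 had the higher rate in the last 20%, and 21 after the control rate was taken off.

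The light harvesting antenna binds the chlorophyll that feeds both photosystems. A member was found in 7 of its 9 genes, and 131 of 136 members were called higher. Their median rate was 0.919% at 1738.5 reads, against 0.905% at 5354 reads in the rest of the listed genes. LHCA3, an antenna protein of photosystem I, had 48 called members with a pooled rate of 0.927% against 0.933% elsewhere. LHCB3 had 24 with 0.907% against 0.928%, and LHCB5 had 19 with 0.923% against 0.970%, both in the antenna of photosystem II. In LHCB1.3, at 8441 and 8147 RPKM, 10 of 13 members were called and the sites in the rest of the gene had 37426.5 reads in the median against 5585. Reads of LHCB1 copies may be shared.

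In photosystem and electron transport subunits 10 of 13 genes had a member and all 125 members were called, with a median rate of 1.04% at 1045 reads against 0.923% at 2838. PSBP1, part of the oxygen-evolving complex, had 27 with 1.12% against 0.911%. PETC, the Rieske protein of the cytochrome b6f complex, had 23 with 0.829% against 0.856%, and PSBS, needed for thermal dissipation of excess light, had 19 with 1.07% against 0.995%.

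Carbon fixation and photorespiration were listed in most genes. Of the Rubisco and Calvin cycle list, 6 Calvin cycle genes were on the plus strand and none encoded Rubisco or its activase. All 6 had a member and 145 of 148 members were called, with a median rate of 0.978% against 0.997% elsewhere. PRK, the phosphoribulokinase that remakes the carbon dioxide acceptor, had 56 called members with a pooled rate of 0.966% against 1.05%. GAPA1, a chloroplast glyceraldehyde-3-phosphate dehydrogenase, had 35 of 37 called with 0.870% against 0.888%, and SBPASE had 21 called with 1.119% against 1.116%, a difference that changed sign less the control. Photorespiration had 204 of 206 members called in 5 of 7 genes, with 1.02% against 0.998% by the median. After GLU1, GOX1 had 54 called members with 1.03% against 0.983%, and GOX2 had 47 of 49 with 0.931% against 1.24%. The control rates of GOX2 were 0.0337% and 0.187%, which left 0.898% against 1.05%.

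For translation factors, 132 of 133 members in 5 of 6 genes were called, with a median rate of 1.02% at 1648 reads against 0.824% at 3708. The pooled rate was nevertheless lower in the last 20% in all 4 genes that could be compared, among them EEF1A2 with 0.965% against 1.30% and PAB2, a poly(A)-binding protein, with 1.20% against 1.34%. Control rates of EEF1A2 were 0.0417% and 0.375%, so its rates less the control were 0.924% and 0.927%. Rises of at least 5 points were called at 3 members of this list, or 2.26%, below the 5.29% of all members. One of them, at 2456983 in EEF1A1, had 11.8% after treatment and 3.93% in the control library. Cytosolic ribosomal proteins had a member in 7 of 15 genes and 45 of 46 called, with 1.28% at 529.5 reads against 1.13% at 791. RPS13A had 14 called members with 1.37% against 1.03%, RPS18A had 12 with 1.17% against 1.67% and RPL3A had 6 with 1.37% against 1.09%.

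All 141 members of the cytoskeleton, ubiquitin and chaperone list were called, in 7 of 7 genes, with a median of 0.989% against 0.930%. ACT2, an actin, had 37 with 0.884% against 0.929% pooled, UBQ10, a polyubiquitin, had 34 with 0.935% against 1.10%, and ACT8 had 28 with 1.17% against 1.19%. The control rates of UBQ10 were 0.0486% and 0.274%, and less the control its order turned, to 0.886% against 0.824%. Aquaporins, which let water through membranes, had 77 of 77 called in 3 of 4 genes and the lowest median, 0.767% against 0.8999%. PIP1-2 had 47 of them with 0.843% against 0.916%, TIP2-1 had 28 with 0.778% against 0.912%, and TIP1-1 had 2.

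Primary metabolism had 107 of 110 members called in 4 of 4 genes, with 0.897% against 0.888%. Besides ATMS1, SAM1, an S-adenosylmethionine synthetase, had 33 called with 1.14% against 0.974%, and GAPC1 had 4 of 6 called, with a pooled rate of 3.18% beside 4.12% in the control. The stress list had members in 1 of 3 genes, CAT3, and the single plus-strand gene for defence had none. Across the 10 lists with a member the median rates lay between 0.767% and 1.28%.

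**Figure D5:**
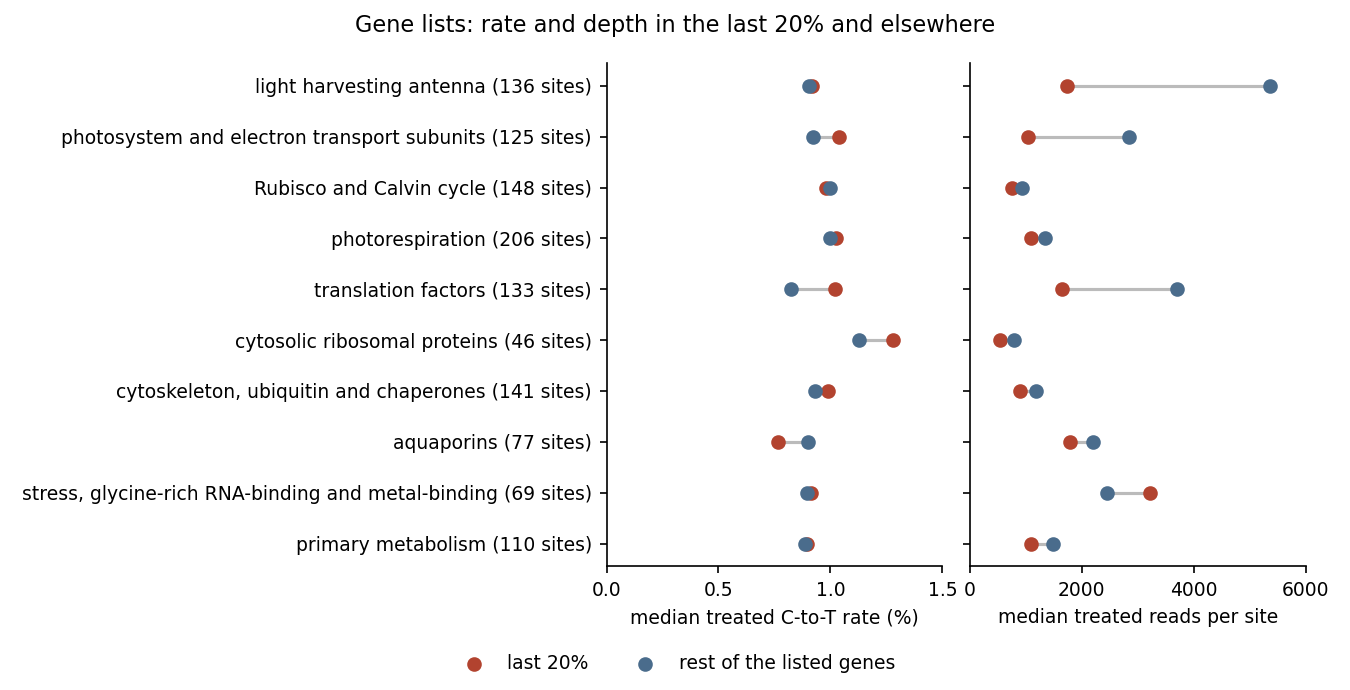
Median treated C-to-T rate (%) and median treated reads per site for 10 gene lists, in the last 20% and in the rest of the plus-strand genes of the list. The last 20% had fewer reads in 9 lists, and the medians of the rate differ by at most 0.195 points in any list.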

How the data were processed

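The submitters' processing notes name STAR 2.5.3a, SAMtools and the build TAIR10, with no role for each. The rule for listing sites is not given in the sources used here. The authors deposited counts of T reads and of reads per cytosine in each library. The latter column is headed C but holds every read at the position: with that reading a test of 2 proportions returned the deposited p-value for 100% of sites (relative tolerance 0.001), and with T added to C for 39.2%. RPKM and translation efficiency are the authors' values, averaged here over the transcripts listed for a gene. The deposited efficiency equals a natural log of mean ribosome-bound over mean mRNA RPKM at 100% of transcripts. The length behind the ribosome-bound RPKM is not given in the sources used here.

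Fisher's exact test (scipy 1.17.1, Python 3.11.15) was run at a minimum of 10 reads per library and adjusted over all 66873 such sites, after a check on simulated data. All 5203 members were tested. Sites carry no strand, so a member is a listed position inside a plus-strand gene.

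The members, gene lists and tests were chosen with earlier results of these data known. Named sites were the 12 called members with the highest treated rate at 100 reads in both libraries and a control rate up to 1%, the 6 highest at 50 treated reads and the 6 deepest, 1 per gene. Named genes were the 6 with most called members (ties in order of code), the 5 largest and 5 smallest differences, and 3 per list. The lowered sites, further deep members, and overlapping or neighbouring genes were named after their values were seen. Of 166 codes in the 11 lists, 153 were in the gene table and 75 on the plus strand. Symbols and roles come from general knowledge and were not checked against an annotation, and other genes are given by code. Exons, introns and sequence context were not analysed here.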

Additional observations from a re-analysis of the deposited data

Results flagged for a closer look

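Sites inside minus-strand genes and outside plus-strand genes entered no comparison above. In the last 20% of those genes, counted in the direction of the gene, 327 sites in 149 genes were listed and 214 were called higher in the treated library, or 65.4%, with a median rate of 1.52% against a control median of 0%. They are given as data that the main comparison did not use, and their share called is below the 94.3% of all tested sites. Sites carry no strand, so these positions may not be cytosines of the transcripts of those genes, which was not tested. The 10458 minus-strand genes together held 1999 such sites, beside 52465 sites in the 10562 plus-strand genes. The rest of the minus-strand genes held 1672 sites, 932 of them called, or 55.7%, with a median rate of 1.40% and a control median of 0.0388%.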

How the results depend on the processing

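Alternatives covered the read minimum, the start of the stretch, overlapping genes, control rate, gene length, depth, stricter calls and the summary per gene. The alternative without genes near the 18S genes was chosen after seeing the data. Called members numbered 4275 of 5203 by the authors' deposited adjusted p, or 82.2%, against 27328 of 30329 or 90.1% in the rest of the same genes. No share over all sites is given for that adjusted p. Called members fell to 674 of 719 with a start at 0.9 of the gene and rose to 8288 of 8575 with a start at 0.75. They were 1253 of 1305 at 1000 or more treated reads and 275 at 5 points or more. Called sites in the rest of the genes with a member, which each alternative defines anew, numbered 11526 with a start at 0.9, 8834 at 1000 reads, and 16594 and 497 with rises of at least 1 and 5 points. The median rate of the members was 1.52% from 0.9, 1.32% from 0.75 and 0.835% at 1000 reads, and that of the rest 1.05%, 1.12% and 0.855%, so the order of the medians turned only at 1000 reads among the 9 alternatives for these medians. Genes with the higher pooled rate in the last 20% numbered 30 of 51 from 0.9. They became the minority with 21 of 60 at 1000 reads and 61 of 123 with 10 sites in both stretches. Other alternatives stayed within 1.5 times the counts and within the 95% order-statistic interval of the medians. That interval treats sites as independent, which neighbouring sites of 1 library are not, so it served only as a tolerance. No paired analysis was possible because each group had 1 library, which also leaves no replicate to leave out. At 547 reads, the median depth of the members, 5 T reads are a rate of 0.914%, and no site of the table had fewer T reads.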
